A study of Mus musculus with 14 samples.

Results

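RUNX1 and PU.1 were each mapped in hematopoietic progenitors (HP) by ChIP-seq, in which DNA crosslinked to a factor is pulled down with an antibody and sequenced, and the sites of the 2 factors were set against each other. The RUNX1 list held 977 peaks and the PU.1 list 10943, together 11920 of the 158488 peaks in the 14 lists of the series. The peaks were split by an overlap of at least 1 bp. RUNX1 only peaks (782) overlapped no PU.1 peak, shared peaks (195) were RUNX1 peaks that overlapped a PU.1 peak, and PU.1 only peaks (10748) overlapped no RUNX1 peak. HP were CD41+ cells obtained by differentiating a mouse embryonic stem cell line of strain 129 that carries a Brachyury-GFP reporter. Macrophages (MAC) were CD11b+ cells grown on from CD41+ cells, and their PU.1 list (82866 peaks) was made with the same antibody, Spi1 sc352. RUNX1 was precipitated with antibody ab23980. Neither population was treated or carried a deletion, so the contrast lies between factors and between stages. All cells came from this culture system and not from an embryo. Every list came from 1 sample, so no value has a spread between replicates, and each test below compares lists and not conditions. All peaks were 400 bp wide and had no score.

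RUNX1 is a DNA-binding factor of the Runt family that works with its partner CBFβ and is required for the first blood cells to emerge from hemogenic endothelium. PU.1, the product of Spi1, is an ETS family factor needed for macrophages and other myeloid cells, and it binds purine-rich sites around a GGAA core. Progenitors express both, and macrophages depend on high levels of PU.1. The 2 factors are known to act together at several myeloid genes.

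The RUNX1 peaks that lacked PU.1 lay mainly at promoters and the PU.1 only peaks mainly far from them, with the shared peaks in between. RUNX1 only peaks outside promoters often held a RUNX consensus, and nearly all peaks with PU.1 in HP were again in the PU.1 list of MAC. Of the RUNX1 only peaks, 432 of 782 lay on a PU.1 peak of MAC although no PU.1 peak was listed there in HP.

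The sequences below show these classes in GRCm38, read from RefSeq and written 5′ to 3′ on the plus strand. Capitals mark the consensus matches. The letters searched were TGTGGTT for RUNX, GAGGAAGT for PU.1, CCGGAAGT for ETS factors of the ELK type and AGATAA for GATA, each on both strands, so that a match on the minus strand reads as the reverse complement. The PU.1 and ETS letters share GGAAGT. Shared peaks come first, chosen because they hold a RUNX match together with a PU.1 match, or lie on all 4 other HP lists.
Ccnd3, intron, chr17:47508132-47508187, RUNX and PU.1: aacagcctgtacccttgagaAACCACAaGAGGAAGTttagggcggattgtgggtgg
Itsn1, intron, chr16:91793513-91793584, PU.1 and RUNX: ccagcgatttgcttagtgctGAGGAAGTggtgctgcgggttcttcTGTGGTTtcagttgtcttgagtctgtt
Slc45a1, intron of Rere, chr4:150566248-150566395, RUNX and PU.1: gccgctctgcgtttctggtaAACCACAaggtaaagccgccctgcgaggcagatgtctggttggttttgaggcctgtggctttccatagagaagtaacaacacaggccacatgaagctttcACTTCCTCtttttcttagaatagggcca
Gfi1, intron of Evi5, chr5:107759265-107759463, RUNX and GATA: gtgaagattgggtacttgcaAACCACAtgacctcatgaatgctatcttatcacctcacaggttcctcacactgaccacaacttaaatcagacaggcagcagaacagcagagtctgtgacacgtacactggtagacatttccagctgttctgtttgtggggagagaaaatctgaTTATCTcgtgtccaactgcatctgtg
RUNX1 only peaks follow. Cbfa2t3 and Runx1 stand for the distal peaks with a RUNX match, and Wdr5 and Rraga, chosen after their values were seen, for promoter peaks with an ETS match and PU.1 in MAC.
Cbfa2t3, intergenic, chr8:122719920-122719970, GATA overlapping RUNX: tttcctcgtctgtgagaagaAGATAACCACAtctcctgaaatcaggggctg
Runx1, intron, chr16:92822149-92822195, RUNX: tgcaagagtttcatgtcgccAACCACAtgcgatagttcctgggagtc
Wdr5, upstream of the start, chr2:27514840-27514887, ETS: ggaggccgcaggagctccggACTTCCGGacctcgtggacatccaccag
Rraga, upstream of the start, chr4:86575603-86575650, ETS: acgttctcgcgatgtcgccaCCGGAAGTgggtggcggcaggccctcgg
PU.1 only peaks are shown at Lcp2 and Mpo, a signalling gene and a granule enzyme gene of myeloid cells.
Lcp2, intron, chr11:34072510-34072557, PU.1: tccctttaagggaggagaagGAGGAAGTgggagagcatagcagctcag
Mpo, upstream of the start, chr11:87793456-87793587, RUNX, GATA and PU.1: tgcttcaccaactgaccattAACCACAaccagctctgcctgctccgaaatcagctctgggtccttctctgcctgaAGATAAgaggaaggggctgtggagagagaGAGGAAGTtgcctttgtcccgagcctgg

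The shared peaks made up 20.0% of the RUNX1 list (95% interval 17.5% to 22.6%) and 1.78% of the PU.1 list (1.54% to 2.05%). The threshold for the RUNX1 list was stricter than that for PU.1, and both were set by eye, so these shares depend on where each list was ended. The split was not sharp. Of the 195 shared peaks, 172 overlapped their PU.1 peak by at least 200 bp, and in 120 the centres lay within 100 bp of each other. The median distance between the RUNX1 and the PU.1 centre was 73.0 bp. It was 65.0 bp in the 115 distal shared peaks and 92.5 bp in the 80 at promoters. On the other side of the boundary, 36 of the 782 RUNX1 only peaks (4.60%) had a PU.1 centre within 1 kb, and 638 (81.6%) had one within 100 kb.

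The first comparison asked how the classes lay with respect to promoters, defined as a peak centre at most 2 kb from a coding transcript's start site (TSS). Of the RUNX1 only peaks, 515 lay at a promoter, which is 65.9% (62.4% to 69.2%). The share was 41.0% in shared peaks (34.0% to 48.3%) and 17.8% in PU.1 only peaks (17.1% to 18.6%). All 3 pairs differed (two-sided Fisher's exact tests with p-values adjusted over the pairs). RUNX1 only exceeded shared by 24.8 percentage points (adjusted p 4.8e-10) and PU.1 only by 48.0 points (adjusted p 1.1e-174). Shared exceeded PU.1 only by 23.2 points (adjusted p 1.1e-13). As a background, 2.26% of the 400 bp windows centred on all 25999 coding TSS overlapped an HP RUNX1 peak, and 4.42% an HP PU.1 peak. The median distance to a coding TSS was 294 bp for RUNX1 only, 4934 bp for shared and 18945 bp for PU.1 only peaks. Of the RUNX1 only peaks, 43.9% lay within 200 bp of a start site, against 6.16% of the PU.1 only peaks. Outside promoters, introns held 17.6% of the RUNX1 only, 32.3% of the shared and 41.9% of the PU.1 only peaks. CpG-rich sequence moved with promoter share. By a GC content above 50% and an observed to expected CpG ratio above 0.6, 62.3% of RUNX1 only, 39.5% of shared and 7.04% of PU.1 only peaks were CpG-rich, and its part in the difference was not tested.

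**Figure D1:**
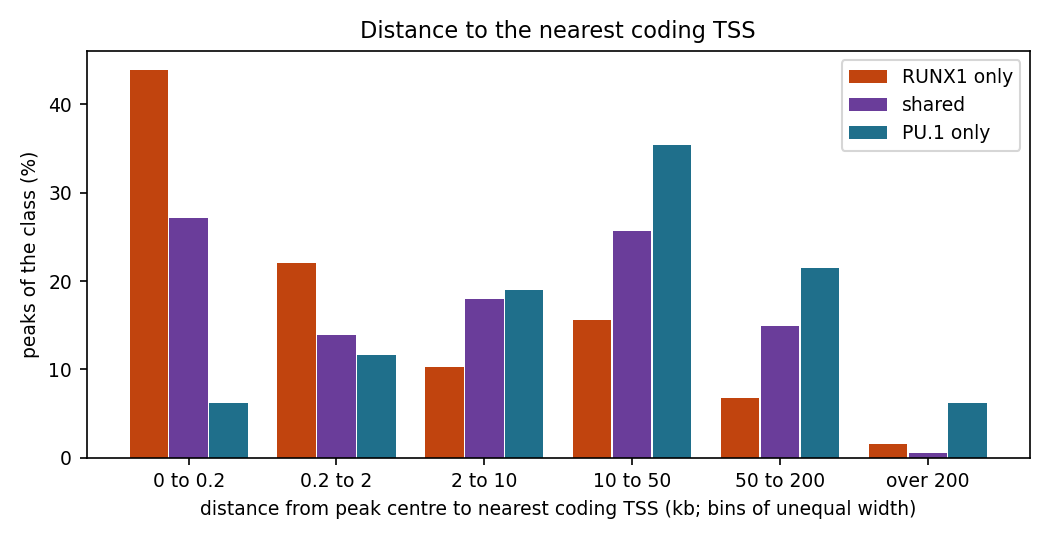
Share of the peaks of each class (y axis, %) by distance from the peak centre to the nearest coding TSS (x axis, kb, bins of unequal width). The RUNX1 only peaks are highest in the bin closest to the start site, where they reach 43.9%, and the PU.1 only peaks are highest between 10 and 50 kb.

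The next comparison asked how many HP sites were occupied by PU.1 in MAC, where PU.1 had many more peaks than in HP. PU.1 was listed in MAC on 10427 of the PU.1 only peaks, or 97.0% (96.7% to 97.3%), and on 182 of the shared peaks, or 93.3% (88.9% to 96.4%). For the RUNX1 only peaks this share was 55.2% (51.7% to 58.8%). The difference of RUNX1 only minus shared was -38.1 points (Fisher's exact test, adjusted p 6.7e-27) and that of RUNX1 only minus PU.1 only -41.8 points (adjusted p 7.8e-253). Shared minus PU.1 only was -3.68 points (adjusted p 0.00905). This smallest of the 3 differences was lost (adjusted p 0.0893) when shared sites were placed at their PU.1 peaks, where 185 of 195 had a MAC PU.1 peak.

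Because the classes differed in promoter share, the counts were repeated at promoters and at distal sites. At promoters, PU.1 in MAC covered 62.5% of RUNX1 only (58.2% to 66.7%), 76 of 80 shared (87.7% to 98.6%) and 98.0% of PU.1 only peaks (97.2% to 98.5%). The windows at all coding TSS, expressed or not, overlapped a MAC PU.1 peak in 31.3%. At distal sites the values were 41.2% (35.2% to 47.4%), 92.2% (85.7% to 96.4%) and 96.8% (96.4% to 97.2%). The MAC PU.1 peaks covered 1.22% of the genome. RUNX1 only differed from each other class in both strata (adjusted p 2.9e-10 or less, Fisher's exact test). Shared minus PU.1 only was -4.63 points at distal sites (adjusted p 0.0125), and at promoters the difference of -2.97 points missed the threshold (adjusted p 0.0904). Both depended on the settings. Over 11 other settings the difference went as low as -37.7 points over all peaks, -31.6 at distal sites and -46.5 at promoters. At promoters it passed the threshold under some of them, which are listed in the closing section. With classes set by centres within 100 bp the distal difference was -3.38 (adjusted p 0.0987) and the promoter difference turned to 2.10 (adjusted p 1.00), and in merged regions they were -2.89 (adjusted p 0.101) and 0.784 (adjusted p 1.00). With classes set by an overlap of 200 bp the promoter difference was 2.07 (adjusted p 0.639). The odds ratios at promoters and at distal sites were not found to differ in any pair (Breslow-Day test, adjusted p 0.176 to 0.981).

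**Figure D2:**
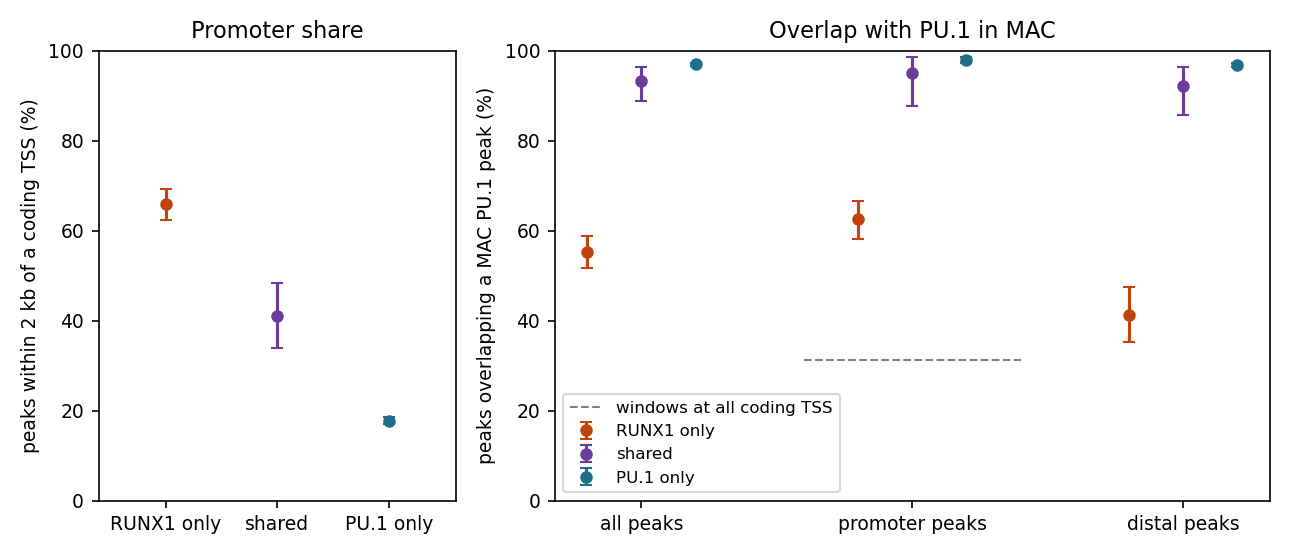
Left, share of peaks within 2 kb of a coding TSS (%), and right, share of peaks that overlap a MAC PU.1 peak (%), for all, promoter and distal peaks. Points are the shares in 1 list with 95% exact intervals as bars, and the dashed line at the promoter peaks is the share among 400 bp windows at all coding TSS (31.3%). RUNX1 only peaks lie above both other classes on the left and below both on the right, and at promoters above the line.

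HP sites of other factors without PU.1 also held PU.1 in MAC, which sets the RUNX1 value in context. Among peaks that lacked PU.1 in HP, 44.5% of those of C/EBPβ (42.5% to 46.6%), 36.7% of GATA2 (32.1% to 41.5%), 32.5% of GFI1B (30.3% to 34.7%) and 28.9% of GATA1 (22.9% to 35.5%) lay on PU.1 in MAC. C/EBPβ is a leucine zipper factor of myeloid cells, GATA1 and GATA2 are zinc finger factors of red cell, platelet and stem cell programmes, and GFI1B is a repressor of the same cells. At distal sites, the RUNX1 share of 41.2% lay beside 41.4% for C/EBPβ, 31.9% for GATA2, 23.2% for GFI1B and 20.4% for GATA1. At promoters the RUNX1 share of 62.5% was followed by GATA1 (57.1%, 28 of 49), C/EBPβ (51.8%), GATA2 (48.8%) and GFI1B (44.5%). These lists overlap each other and were not tested against RUNX1.

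The distance between peak centres was compared next. The centre of a PU.1 only peak lay a median of 13.0 bp from the centre of its MAC PU.1 peak. In shared regions the PU.1 centre lay 15 bp and the RUNX1 centre 71.5 bp from it. For the 432 RUNX1 only peaks with PU.1 in MAC the median was 98.0 bp, and 220 of them lay within 100 bp. When the MAC overlap was required to have centres within 100 bp, the RUNX1 only share was therefore 28.1%, the shared 57.4% and the PU.1 only share 95.1%. The shared value is measured from the RUNX1 centre, and from the PU.1 centre of the same regions it was 176 of 195, so it depends on which centre is used.

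The classes were searched for consensus sequences. A RUNX match was found in 25.2% of RUNX1 only, 30.3% of shared and 12.3% of PU.1 only peaks. Both RUNX1 classes exceeded PU.1 only (Fisher's exact test, adjusted over 15 comparisons, p 3.7e-20 and 1.5e-10), and RUNX1 only and shared did not differ beyond counting error (adjusted p 0.234). The share was highest at distal sites, which held 121 of the 197 RUNX1 only peaks with a match. There it was 45.3% of RUNX1 only (39.2% to 51.5%) and 46.1% of shared peaks (36.8% to 55.6%), against 13.2% of PU.1 only peaks and 11.4% of the windows 2 kb to each side of the distal RUNX1 only peaks. RUNX1 only peaks at promoters held a RUNX match in 14.8% (11.8% to 18.1%), near the 11.7% in their flanks, while windows at all coding TSS held it in 5.44%. Shared peaks at promoters held it in 6 of 80 (7.50%, 2.80% to 15.6%), beside 11.2% in their flanks and 8.09% of PU.1 only peaks at promoters. The higher share in shared peaks was thus seen at distal sites and not at promoters, where the classes were not tested.

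A PU.1 match was in 42.4% of PU.1 only, 20.5% of shared and 2.05% of RUNX1 only peaks, and all 3 pairs differed (adjusted p 6.2e-10 or less, Fisher's exact test). Shared peaks were read in their RUNX1 windows, whose centres lay a median of 73.0 bp from the PU.1 centres. Their share is thus not measured around the PU.1 centre, as that of PU.1 only peaks is. The RUNX1 only share was close to that in its flanks, 2.17%, and windows at coding TSS held the match in 3.57%. Of the 16 RUNX1 only peaks with a PU.1 match, 12 overlapped a PU.1 peak in MAC, beside 55.2% of all RUNX1 only peaks. The PU.1 match lay a median of 12.0 bp from the centre of PU.1 only peaks and 50.0 bp from the RUNX1 centre of shared peaks. The RUNX match lay 25.5 bp from the centre of RUNX1 only, 26.5 bp from that of shared and 77.5 bp from that of PU.1 only peaks. RUNX matches in the RUNX1 classes and PU.1 matches in the PU.1 only class thus clustered at the centre.

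**Figure D3:**
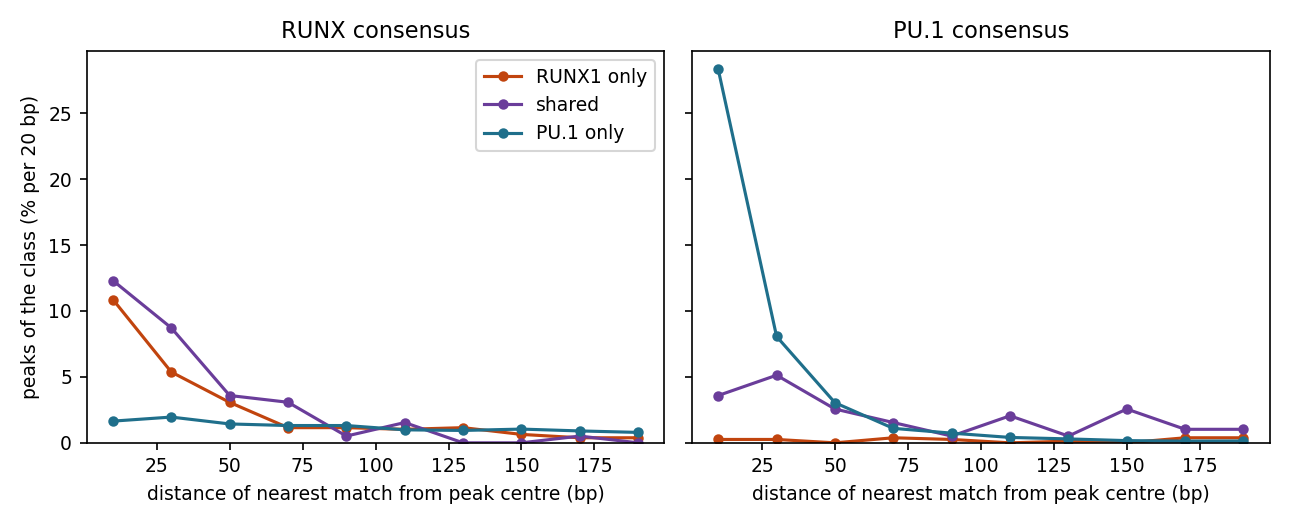
Peaks whose nearest RUNX match (left) or PU.1 match (right) lies at a given distance from the peak centre (x axis, bp, in steps of 20 bp), as % of all peaks of the class (y axis). RUNX matches peak at the centre of RUNX1 only and shared peaks, and PU.1 matches at the centre of PU.1 only peaks.

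Shared peaks held a RUNX match alone in 22.6%, a PU.1 match alone in 12.8%, both in 7.69% (15 peaks) and neither in 56.9%. Both matches together were seen in 3 RUNX1 only peaks (0.384%) and in 507 PU.1 only peaks (4.72%). In the 15 shared peaks the matches lay 8 to 249 bp apart with a median of 76.0 bp, and in 4 of them at most 50 bp apart. Each distance was measured from the middle of one match to the middle of the other. In the 507 PU.1 only peaks the median was 78.0 bp, with 170 at most 50 bp apart. In the 3 RUNX1 only peaks it was 13.0 bp, with 2 at most 50 bp apart. The closest pair among shared peaks was the one printed above for Ccnd3, the gene of cyclin D3, which drives cells into S phase. In Itsn1, a scaffold protein of endocytosis, the matches were 24 bp apart. The other close pairs in shared peaks were at Cfdp1 (11 bp) and Ubash3b (12 bp), named after their values were seen. The Mpo promoter held both matches, and a GATA match between them, in a peak where RUNX1 was not listed.

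The ETS letters were in 8.31% of RUNX1 only and 7.69% of shared peaks, against 1.47% of PU.1 only peaks (adjusted p 4.3e-24 and 8.2e-07, Fisher's exact test), and windows at all coding TSS held them in 5.45%. At promoters, given without a test, they were in 11.8% of RUNX1 only, 16.2% of shared and 5.06% of PU.1 only peaks. At distal sites the shares were 1.50%, 1.74% and 0.691%, with no pair past the threshold (adjusted p 0.205 to 1.00). RUNX1 only promoters with PU.1 in MAC held an ETS match in 52 of 322 (16.1%, 12.3% to 20.6%), and those without in 9 of 193 (4.66%, 2.15% to 8.67%). Wdr5, a subunit of histone methyltransferase complexes, and Rraga, a GTPase of nutrient sensing, belong to the former. GATA letters were in 33.0% of distal RUNX1 only, 24.3% of distal shared and 21.3% of distal PU.1 only peaks, and RUNX1 only exceeded PU.1 only (adjusted p 3.8e-05). Over all peaks the order was the other way (15.6% against 19.9%, adjusted p 0.00472), but this turned to a difference of 0.342 points when only the central 200 bp were read. C/EBP letters (TTGCNNAA) were in 10.1% of RUNX1 only, 15.9% of shared and 16.8% of PU.1 only peaks. RUNX1 only minus PU.1 only was -6.75 points (adjusted p 5.0e-07, Fisher's exact test), and RUNX1 only minus shared was -5.80 (adjusted p 0.0458), which missed the threshold in the central 200 bp (-3.60). At distal sites no C/EBP pair passed it (adjusted p 0.123 to 0.927). Distal RUNX1 only peaks without PU.1 in MAC held a GATA match in 38.9% (31.2% to 46.9%) and those with it in 24.5% (16.8% to 33.7%).

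The lists of other HP factors were laid over the classes. At least 1 of the GFI1B, C/EBPβ, GATA1 and GATA2 lists covered 203 of 782 RUNX1 only peaks, 79 of 195 shared peaks (40.5%) and 589 of 10748 PU.1 only peaks (5.48%). At distal sites GFI1B covered 26.6% of RUNX1 only (21.4% to 32.3%), 33.0% of shared (24.6% to 42.4%) and 1.19% of PU.1 only peaks (0.973% to 1.44%). GATA2 covered 16.9%, 20.0% and 0.657%, and GATA1 15.4%, 11.3% and 0.181%. C/EBPβ in HP covered 8.24%, 13.0% and 3.25%. These lists held 2018 (GFI1B), 530 (GATA2), 250 (GATA1) and 2716 (C/EBPβ) peaks. Each was shorter than the PU.1 only class, which limits the share of that class it could cover. As counts over all peaks, GFI1B covered 127 RUNX1 only and 163 PU.1 only peaks, and GATA2 61 and 75. GATA1 covered 51 and 22, and C/EBPβ 47 and 378. At promoters C/EBPβ covered 4.85% of RUNX1 only peaks (3.17% to 7.08%), close to the 4.75% of PU.1 only peaks (3.84% to 5.80%), and 13.8% of shared peaks (7.07% to 23.3%). In MAC, C/EBPβ covered 36.6% of RUNX1 only (33.2% to 40.1%), 51.8% of shared (44.5% to 59.0%) and 35.7% of PU.1 only peaks (34.8% to 36.7%). The MAC RUNX1 list had 72 peaks, of which 21 lay on a shared, 15 on a RUNX1 only and 15 on a PU.1 only peak, and 60 on a MAC PU.1 peak. These shares are given without a test, and some of them with exact intervals.

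**Figure D4:**
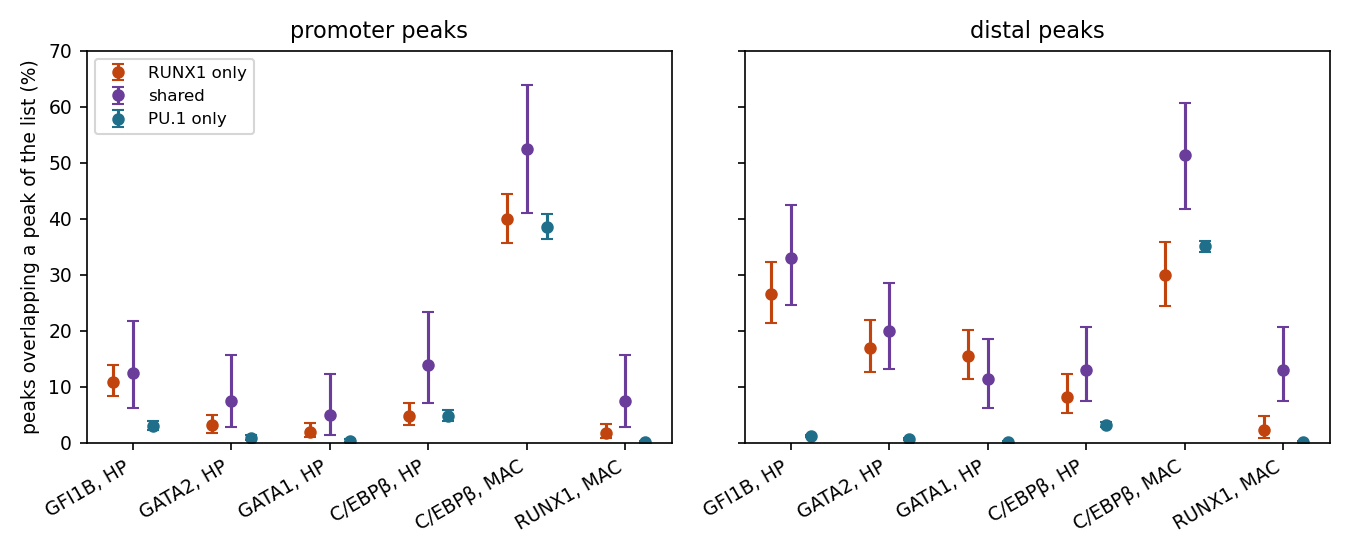
Share of promoter peaks (left) and distal peaks (right) of each class that overlap a peak of another list (y axis, %), with 95% exact intervals as bars. In distal peaks the GFI1B, GATA1 and GATA2 lists each cover 15.4% to 26.6% of RUNX1 only and 11.3% to 33.0% of shared peaks. They cover 1.19% or less of PU.1 only peaks, a class with more peaks than any of these lists.

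The shared peaks on the most other lists were at Gfi1, Rpp21, Esp38 and Axin2, each on all 4 other HP lists. The Gfi1 peak, 33522 bp upstream of this repressor gene in an intron of Evi5, held a RUNX and a GATA match and was also on the RUNX1 and PU.1 lists of MAC. The peaks assigned to Rpp21, Esp38 and Axin2 had no match to any of the 5 consensus sequences, and the Rpp21 region was on all 14 lists. The Gfi1 and Esp38 peaks were each on 11 of these lists and the Axin2 peak on 10. Regions listed with many antibodies were not filtered out, and whether every factor binds them was not tested. A mesoderm or hemangioblast list covered 4.86% of RUNX1 only, 8.21% of shared and 0.809% of PU.1 only peaks. Of the 6 shared peaks on 3 other HP lists, those at Nfe2 and Vav1, members of the gene lists, are described here. The one 99 bp upstream of the start of Nfe2, a factor of platelet and red cell genes, was on C/EBPβ, GATA1 and GATA2. The one in Vav1, 11389 bp into this exchange factor of leukocyte signalling, was on GATA1, GATA2 and GFI1B.

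The 13 shared peaks that lacked PU.1 in MAC are too few to show a difference in make-up, and no test was made. None held a PU.1 match and 6 held a RUNX match. Of all shared peaks, 20.5% and 30.3% held these matches, and of distal shared peaks 21.7% and 46.1%. The 13 peaks were assigned to Arpc3, Cd300a, Clasp1, Dlc1, Drc7, Hdlbp, Kctd10, Lctl, Mdm1, Nedd4, Pik3cb, Plod3 and Rcc2, named here because they are the exceptions. In Arpc3, Hdlbp, Nedd4 and Plod3, all at promoters, the RUNX1 and PU.1 centres lay 340 to 389 bp apart, so that the 400 bp windows met only at their edges. The lack of PU.1 in MAC was read at the RUNX1 peak. With the RUNX1 and PU.1 peaks merged, 187 of 195 shared sites had a MAC PU.1 peak, and 79 of 80 at promoters. Some of the 13 thus had PU.1 in MAC beside the RUNX1 peak. In the peak downstream of Cd300a, an inhibitory receptor of myeloid cells, the centres were 2 bp apart and a RUNX match lay 8 bp from the centre.

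The genes were compared by assigning each peak to the coding gene with the nearest TSS. RUNX1 only peaks reached 754 genes, shared peaks 189 and PU.1 only peaks 6338 of 21000 coding genes, which is 3.59%, 0.900% and 30.2%. Of the 754 genes, 729 had 1 RUNX1 only peak (96.7%), and of the 6338 genes, 3933 had 1 PU.1 only peak (62.1%). The classes differ in size, and the counts per gene were not adjusted for it. Of the 754 RUNX1 only genes, 354 (46.9%, 43.3% to 50.6%) also had a PU.1 only peak, against the 30.2% of all coding genes, and 396 (52.5%) had no PU.1 peak of either kind. Of the 189 genes of shared peaks, 107 (56.6%, 49.2% to 63.8%) had a further PU.1 only peak. Genes with long surroundings collect more peaks of any list, and the part of this in the overlap was not tested.

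The genes with the most RUNX1 only peaks began with Gse1, whose product is found with a corepressor complex. It had 5 RUNX1 only, 1 shared and 4 PU.1 only peaks. Of its RUNX1 only peaks, 3 were on the GATA1, GATA2 and GFI1B lists. All other genes named here had 2 RUNX1 only peaks each and were taken by symbol from a larger tie, to which Runx1 also belongs. They included Bbc3, the cell death gene PUMA, with a RUNX match within 5 bp of the centre of both peaks. They also included Cdkn1b, the cell cycle inhibitor p27, and Cks2, a cofactor of cyclin-dependent kinases. Neither had any PU.1 peak in HP, and 52.5% of all RUNX1 only genes had none. Adgrg1, an adhesion receptor of stem cells, had a RUNX1 only peak on GATA1 and GATA2 at 939 bp and another 12068 bp upstream. Adcy9, Btbd9, Cmtm6 and Gtf3c5 were also among them.

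Among shared peaks, Itsn1 had 3, all in its introns, each with a RUNX match 21 to 35 bp from the centre. Ccdc12, Esp38, Fos and Prkab1 had 2 each. PU.1 only peaks were most frequent at Pik3r1 and Tomm20 with 12 each, followed by Plcg2, Sgms1 and Zfhx3 with 11 and by Adgrl2, Etv6, Irs2, Klf6 and Ptprc with 10. Pik3r1 encodes a regulatory subunit of PI3 kinase, and Ptprc the leukocyte phosphatase CD45. At Ptprc, 8 of the 10 peaks held a PU.1 match, beside 42.4% of all PU.1 only peaks. RUNX1 was not listed there. Of all coding genes, 3.59% had a RUNX1 only and 0.900% a shared peak.

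All 3 classes met at 12 of the 6816 genes with a peak of any class (0.176%). These were Cbfa2t3, Ccnd3, Cuedc1, Fos, Fth1, Gnai2, Gse1, Irs2, Lyl1, Reep3, Runx1 and Slc45a1. Runx1 itself had 2 RUNX1 only, 1 shared and 8 PU.1 only peaks. The RUNX1 only peak at chr16:92822071-92822470, part of which is printed above, 3803 bp into a transcript of the gene, was on the GATA1, GATA2 and GFI1B lists, and its centre lay 465 bp from a PU.1 only peak with a PU.1 match 3 bp from the centre. The shared peak, 24320 bp inside, was on C/EBPβ and GATA2 and had PU.1 in MAC. Lyl1, a basic helix-loop-helix factor of blood progenitors, had a shared peak 60 bp from its start, on GATA1 and GATA2. Its RUNX1 only peak at 2103 bp held 3 RUNX matches and was on the RUNX1 list of MAC but not on that of PU.1, and its PU.1 only peak lay 1427 bp upstream. Cbfa2t3, the corepressor ETO2, had a RUNX1 only peak 20898 bp upstream with GATA1, GATA2 and GFI1B, in which the GATA and RUNX letters overlap by 2 bases in the sequence printed above. Its shared peak, 1773 bp upstream, was on GATA2 and GFI1B and had PU.1 in MAC. Ccnd3 had a shared peak at 3118 bp, a RUNX1 only peak with a RUNX match 1 bp from the centre at 2238 bp from another start site, and a PU.1 only peak at 18637 bp. Fos, an immediate early factor, had shared peaks 35 bp and 18582 bp upstream, a RUNX1 only peak 1391 bp upstream and a PU.1 only peak 5103 bp upstream. Fth1, the heavy chain of ferritin, had a RUNX1 only peak 3 bp from its start and a shared peak with 2 RUNX matches 4097 bp upstream.

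In the RUNX family, Runx3 had 1 shared and 9 PU.1 only peaks, Runx2 had 3 and Cbfb 2 PU.1 only peaks. Of 12 ETS factor genes, 2 had a RUNX1 only (Elf2, Ets2), 1 a shared (Spi1) and 9 a PU.1 only peak, beside 3.59%, 0.900% and 30.2% of all coding genes. The Spi1 peak, chr2:91082860-91083259, lay 655 bp inside the gene with its RUNX1 and PU.1 centres 23 bp apart, and it was on C/EBPβ in HP and on C/EBPβ and PU.1 in MAC. A PU.1 only peak lay 2338 bp inside. Of 22 blood transcription factor genes, 3 had a RUNX1 only peak (Lyl1, Cebpe, Tcf12), 4 a shared peak (Lyl1, Gfi1, Nfe2, Zfpm1) and 17 a PU.1 only peak. The RUNX1 only peak at Cebpe, a late granulocyte factor, was on all 4 other HP lists and held 3 C/EBP matches (TTGCNNAA). These are 13.6%, 18.2% and 77.3% of the 22 genes, against 3.59%, 0.900% and 30.2% of coding genes. Nfe2 had no PU.1 only peak. Cebpb had 6 PU.1 only peaks and no RUNX1 peak.

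Genes of mature myeloid function are given beside all coding genes, of which 30.2% had a PU.1 only and 3.59% a RUNX1 only peak. Of 26 myeloid effector genes, such as the integrin Itgam, the oxidase subunits Ncf1 and Ncf4 and the granule enzyme Mpo, 19 had a PU.1 only peak (73.1%), 1 a RUNX1 only peak (3.85%, Csf1) and 0 a shared peak. Of 25 leukocyte signalling genes, 22 had a PU.1 only peak (88.0%), 2 a shared peak (8.00%, Vav1 and Lcp2, against 0.900% of coding genes) and 2 a RUNX1 only peak (8.00%, Rac2 and Plcg2). The shared peak in Lcp2, which encodes the adaptor SLP-76, had a RUNX match 4 bp from its centre. Of the 5 PU.1 only peaks of this gene, 4 held a PU.1 match, beside 42.4% of all PU.1 only peaks. Of 12 growth factor receptor genes, 7 had a PU.1 only peak, among them Csf1r with 4 and Kit with 1, and 1 had a shared peak (Csf2ra).

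In lists of other lineages and functions, PU.1 only peaks were at 12.5% to 65.0% of the members and RUNX1 only peaks at 0% to 20.0%. Of 20 megakaryocyte and platelet genes, 7 had a PU.1 only (35.0%) and 2 a RUNX1 only peak. The latter were Itgb3, integrin β3, with a RUNX match 22 bp from the centre and GFI1B on it, and Cd9, a tetraspanin. Cd9 had no PU.1 peak in HP, like 52.5% of all RUNX1 only genes. Of 16 erythroid genes, 2 had a PU.1 only peak (12.5%, against 30.2% of coding genes), and 0 had a RUNX1 peak. Of 20 endothelial genes, 12 had a PU.1 only peak, 1 a RUNX1 only peak (Hes1) and 1 a shared peak (Sox7). Of 20 chromatin regulators, 12 had a PU.1 only peak and 0 a RUNX1 peak. With RUNX1 only peaks at 3.59% and shared peaks at 0.900% of coding genes, a count of 0 in lists of 16 or 20 genes is near the background. Of 20 cell cycle and survival genes, 4 had a RUNX1 only peak (Cdkn1b, Ccnd3, Pim1, Btg2), 1 a shared peak (Ccnd3) and 13 a PU.1 only peak.

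Housekeeping lists had RUNX1 only peaks in 5.13% to 7.69% of their members, against 3.59% of coding genes. They were found at 6 of 84 cytosolic ribosomal protein genes, 2 of 39 proteasome subunits, 3 of 39 splicing factors and 4 of 75 mitochondrial ribosomal protein genes. The 4 mitochondrial genes, Mrpl17, Mrpl4, Mrpl40 and Mrpl45, had the peak within 165 bp of the start. None of them had a PU.1 peak in HP, and 52.5% of all RUNX1 only genes had none. Of the proteasome genes, Psma6 and Psmd7 had the RUNX1 only peak within 114 bp of the start. Both lay on a PU.1 peak of MAC, beside 62.5% of all RUNX1 only peaks at promoters. PU.1 only peaks were at 34.5% of the cytosolic ribosomal, 25.6% of the proteasome, 48.7% of the splicing and 21.3% of the mitochondrial ribosomal genes. Shared peaks occurred at Rpl27a and Srsf2. The nearest gene need not be the one a site acts on, and no expression was analysed here.

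**Figure D5:**
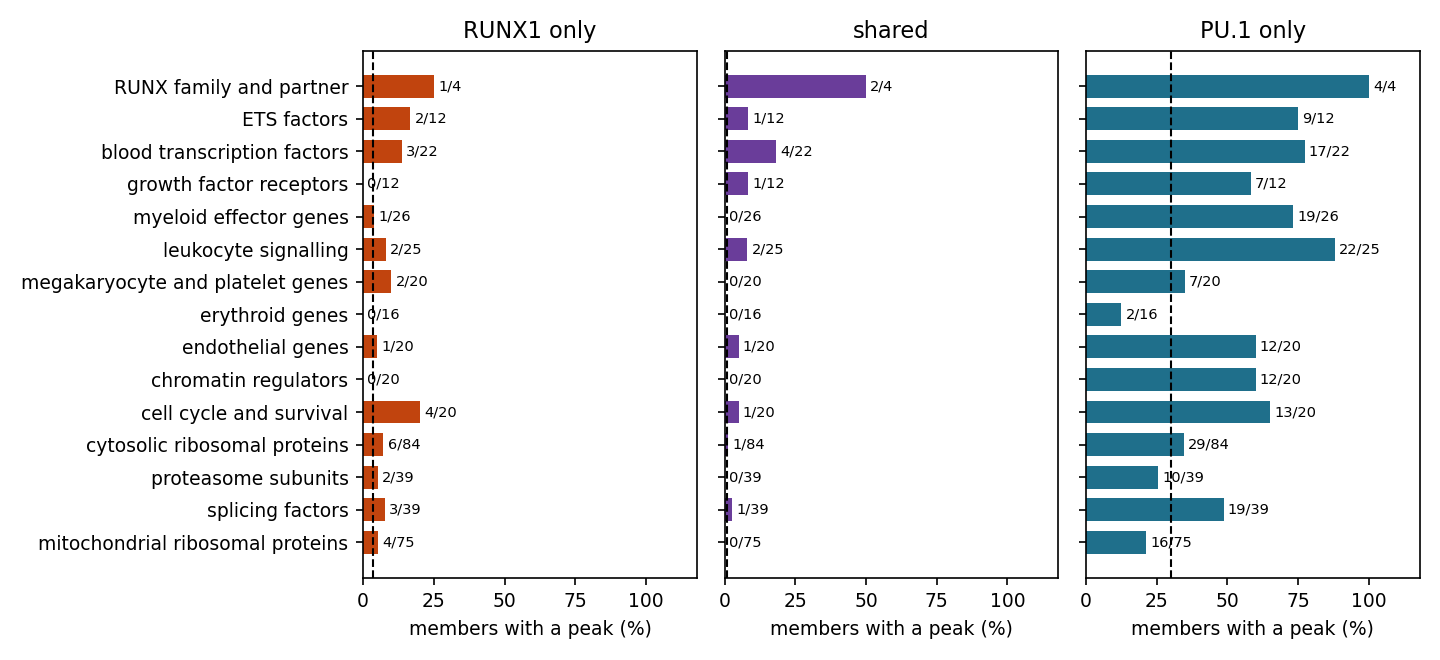
Share of the coding members of each gene list that are the nearest gene of at least 1 RUNX1 only, shared or PU.1 only peak (x axis, %), with the counts beside the bars. Dashed lines give the share of all coding genes, 3.59%, 0.900% and 30.2%. The PU.1 only bars are longest for the RUNX family, leukocyte signalling and blood transcription factors, and shortest for erythroid genes.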

How the data were processed

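The deposited values are peak starts and ends, in no unit other than base pairs on mm10 (GRCm38). By the published methods, the authors trimmed reads with CutAdapt, aligned them with Bowtie, kept unique reads, removed duplicates with Picard and called peaks with MACS against the input of the stage. The p-value threshold was set by eye for each list, and polyPeak windows around summits were deposited. Versions are not given in the sources used here, and the read depth behind each list was not used here. List length is therefore no measure of binding, and a site missing from a list may lie below its threshold. Technical runs were merged for the MAC RUNX1 list and for the C/EBPβ lists of HP, mesoderm and hemogenic endothelium and the hemangioblast GATA2 list.

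Overlaps, nearest start sites (RefSeq, NM transcripts, 25999 TSS) and consensus matches were computed with Python 3.11.15, SciPy 1.17.1, statsmodels 0.14.6 and pysam 0.24.0, and drawn with Matplotlib 3.10.9. Fisher's exact tests were two-sided with Benjamini-Hochberg adjustment (3 pairs, or 15 for consensus sequences) and a threshold of 0.05. Intervals are exact Clopper-Pearson 95% intervals and cover counting error between peaks of 1 library only. The programs were tested on simulated data. In all, 1 mitochondrial PU.1 peak had no coding gene.

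Named genes are members of the 15 gene lists with a peak, the 10 genes with the most peaks in each class (ties by symbol), genes with all 3 classes, and the shared peaks on the most other HP lists (up to 5). The classes, gene lists, consensus sequences and named genes were chosen with earlier results of these data known, and alternatives are given in the closing section. A few genes that the rule names are not reported here. Lists of other factors of the study were not used here.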

Additional observations from a re-analysis of the deposited data

How the results depend on the processing

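No paired analysis was possible because each factor and stage had 1 list, and no replicate could be left out. In all, 376 values were recomputed under 14 other settings and under 1 chosen after seeing the data. Differences are in percentage points, first class minus second, with Fisher's exact test and adjusted p. The promoter differences kept their direction and their side of the threshold under the 9 settings that apply to them, and so did the MAC PU.1 differences of RUNX1 only from each other class under 11 settings, overall and in both strata.

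The MAC PU.1 difference of shared minus PU.1 only was past the threshold only in part. It missed it with an overlap of 200 bp (-1.65), centres within 100 bp (-1.16), shared sites at their PU.1 peaks (-2.14) and merged regions (-1.12), with adjusted p 0.0893 to 0.414, and at distal sites with centres within 100 bp (-3.38) and merged regions (-2.89). At promoters it passed with a 500 bp promoter (-4.56), TSS of all transcripts (-4.05), 1 peak a gene (-3.54), a MAC overlap of 200 bp (-20.1) and MAC centres within 100 bp (-46.5), the last 2 measured from the RUNX1 peak of the shared sites. There it changed sign with an overlap of 200 bp (2.07), centres within 100 bp (2.10) and merged regions (0.784), without passing the threshold. With centres within 100 bp the shared peaks fell to 120 and their genes to 116. In the central 200 bp, the GATA difference of RUNX1 only minus PU.1 only reversed (0.342), the C/EBP difference of RUNX1 only minus shared missed the threshold (-3.60), and the distal GATA difference of shared minus PU.1 only passed it (7.31).

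The setting chosen after seeing the data kept only the first 977 PU.1 peaks in file order, whose meaning is not stated. It left 28 shared peaks with 27 genes, 879 PU.1 only genes and 72 RUNX1 only genes with a PU.1 only peak. The MAC difference of shared minus PU.1 only became 0.527 and, at distal sites, 0.638, and that of RUNX1 only minus shared at promoters was -33.6 (adjusted p 0.0503). The promoter difference of shared minus PU.1 only was 14.8 (adjusted p 0.0735). For consensus sequences, differences that missed the threshold were PU.1 (-9.10, distal -3.62) and ETS (6.41) for shared minus PU.1 only, GATA (-2.95) for RUNX1 only minus PU.1 only and C/EBP (-6.79) for RUNX1 only minus shared. Fewer peaks enter each of these tests. In file order, 51.8% of the first 2735 and 36.3% of the last 2736 PU.1 peaks held a PU.1 match. The cause of the other changes was not tested. Depth behind the lists limits which sites could be listed at all.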
